A study of Mus musculus with 6 samples.

Results

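Most of the genes described here build the kinetochore and the spindle or drive mitosis and cytokinesis. Akap9 and Evi5 were grouped under centrosome and trafficking. The full list held 40 mouse genes, and its members on the array were all probe sets annotated with exactly 1 of the 40 symbols. In all, 39 of the 40 genes were found, out of 18193 genes named on the array, with 91 of the 45037 probe sets tested. Ccnb1, which encodes cyclin B1, was the gene with no probe set under this rule. RNA was measured on 6 Affymetrix mouse expression arrays, each a set of short oligonucleotide probes grouped into probe sets of 1 or more per gene. The induced group held 3 arrays of cells kept for 24 h without tetracycline, and the uninduced group held 3 arrays of the same clones at 0 h, with tetracycline present. The cells were undifferentiated mouse embryonic stem (ES) cells of the EBRTcH3 line, in which both groups carry the human GTF2I open reading frame with a 3xFLAG tag inserted at Rosa26 behind a tetracycline-repressed promoter. The 3 lines, A1, B3 and C6, were each 1 clone, and each clone gave 1 induced and 1 uninduced array. One label field gives the transgene as GTF2IRD2 where the sample titles and the methods give GTF2I, and the titles are followed here. Removal of tetracycline and expression of the transgene cannot be told apart in this design.

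The kinetochore is the protein assembly that forms on the centromere of each chromosome and binds spindle microtubules. Its outer layer, the KMN network of Knl1, the Mis12 complex and the Ndc80 complex, makes the microtubule contact and is the platform on which the spindle checkpoint holds back Cdc20 until every chromosome is attached. Many of these genes are transcribed late in the cell cycle, when MuvB complexes with B-Myb (Mybl2) and then FoxM1 act at a promoter element called the CHR (cell cycle genes homology region), commonly with NF-Y bound to CCAAT boxes a short way upstream. ES cells divide rapidly with a short G1 phase, so that a large share of a culture is in S, G2 or M phase at any time. On bulk arrays, fewer cells in mitosis and less RNA per cell cannot be told apart.

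Promoter windows of 34 of the 40 genes were found among the RefSeq sequences of build GRCm38.p6 (300 bases, 250 before and 50 after an annotated start, with 2 starts each for Bub3, Ect2 and Prc1). The start of the window was the first base of the RefSeq gene in 18 of the 37 windows. In the others it lay elsewhere, and positions below are counted from the start of each window's own annotation. On either strand, the CHR letters TTTGAA or TTCGAA lay in the windows of 23 of the 34 genes (67.65%), and the NF-Y box letters CCAAT in 26 (76.47%). Over all 27025 genes with a window the shares were 21.66% and 41.06%. Both elements were found for 20 members (58.82%), against 9.65% of all genes and 24.69% of 81 other mitosis genes. Of the 23 genes, 20 had a CHR match within 50 bases of the start, and 1 CHR match overlapped an NF-Y box. Birc5, Dsn1, Mad2l1, Nuf2 and Nusap1 had neither set of letters in the window. Aurkb, Incenp, Ccna2, Tpx2, Spc24 and Nsl1 were not matched to a window. Such a match is a description of the letters only.

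**Figure D1:**
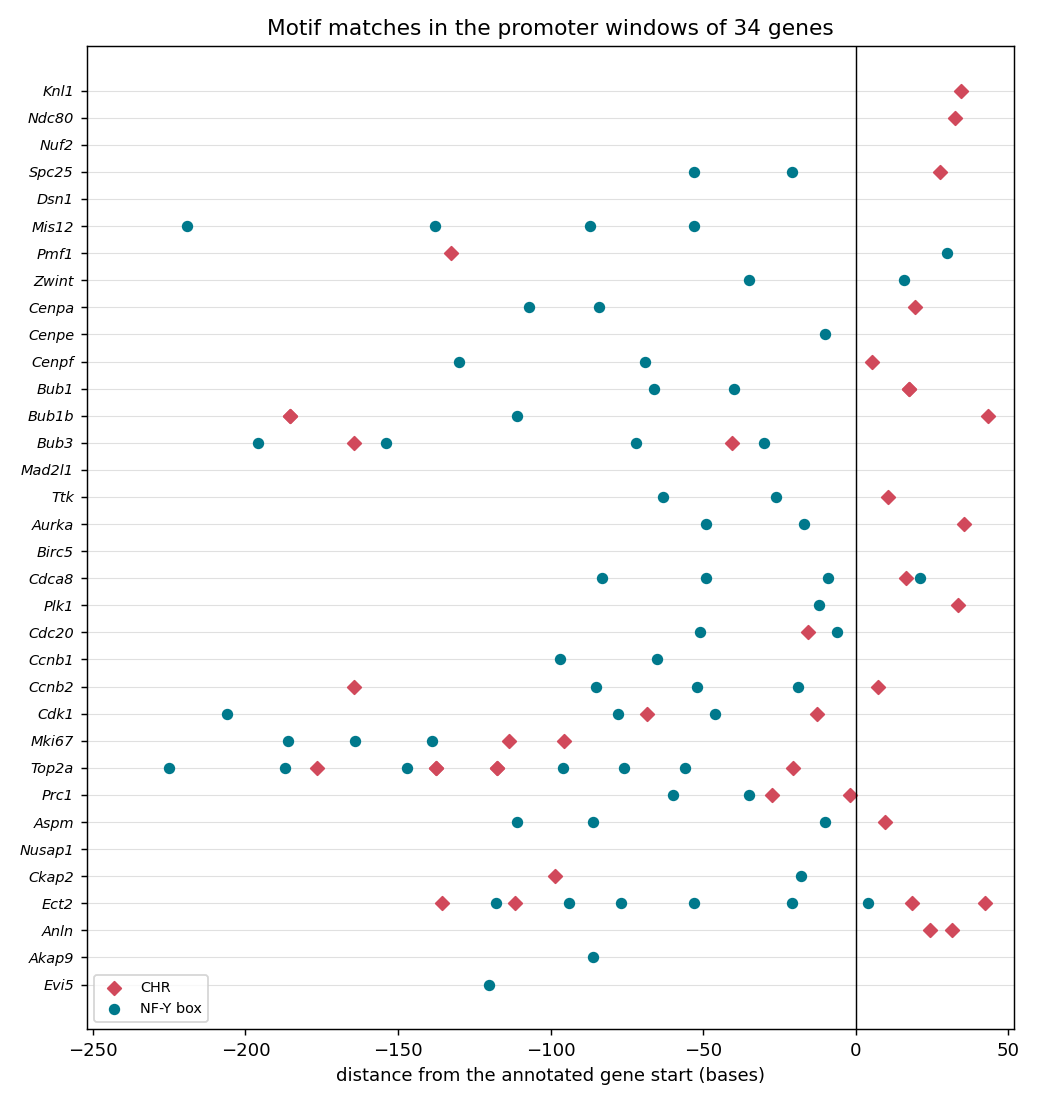
Positions of CHR matches (red diamonds) and NF-Y boxes (blue circles) in the promoter windows of 34 member genes, in bases from the annotated start, with the genes ordered by role and both windows drawn for Bub3, Ect2 and Prc1. That start was the first base of the RefSeq gene in 18 of the 37 windows. CHR matches within 50 bases of the start were present for 20 of the 23 genes that held one.

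4 windows show the arrangement of both elements, in Cdc20 (activator of the anaphase-promoting complex), Ccnb2 (cyclin B2), Cdk1 (the mitotic kinase) and Cenpf (a large outer kinetochore protein). Each run of 160 bases runs from base -130 to base 30 around the start, reads 5′ to 3′ along the gene, and has the CHR (TTTGAA or TTCGAA) and the NF-Y box (CCAAT) on either strand in capitals.
Cdc20 (chr4:118437314-118437473, minus strand): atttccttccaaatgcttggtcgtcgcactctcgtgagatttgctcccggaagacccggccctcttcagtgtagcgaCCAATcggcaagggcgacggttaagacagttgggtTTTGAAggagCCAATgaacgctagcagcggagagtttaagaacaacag
Ccnb2 (chr9:70421525-70421684, minus strand): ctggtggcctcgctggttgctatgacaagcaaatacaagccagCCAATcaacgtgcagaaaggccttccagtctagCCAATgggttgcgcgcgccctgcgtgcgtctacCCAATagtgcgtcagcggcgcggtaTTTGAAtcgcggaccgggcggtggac
Cdk1 (chr10:69352883-69353042, minus strand): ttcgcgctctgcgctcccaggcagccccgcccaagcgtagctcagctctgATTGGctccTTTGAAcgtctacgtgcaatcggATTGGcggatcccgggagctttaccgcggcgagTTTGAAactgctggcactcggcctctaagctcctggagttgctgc
Cenpf (chr1:189688057-189688216, minus strand): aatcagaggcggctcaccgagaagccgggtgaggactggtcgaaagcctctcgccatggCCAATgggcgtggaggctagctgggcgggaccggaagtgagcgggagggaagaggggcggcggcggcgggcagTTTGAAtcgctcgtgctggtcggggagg

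4 further windows belong to genes with a probe set that passed a test below. Evi5, Akap9 and Cenpe held an NF-Y box and no CHR letters in the window, and Aspm held both. Knl1, the remaining gene of that kind, had a CHR match and no NF-Y box, and its match lay outside the stretch printed for the others.
Evi5 (chr5:107869019-107869178, minus strand): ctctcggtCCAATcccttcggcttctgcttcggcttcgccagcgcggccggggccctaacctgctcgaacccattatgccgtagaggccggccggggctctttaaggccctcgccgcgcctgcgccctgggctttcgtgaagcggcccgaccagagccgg
Akap9 (chr5:3928056-3928215, plus strand): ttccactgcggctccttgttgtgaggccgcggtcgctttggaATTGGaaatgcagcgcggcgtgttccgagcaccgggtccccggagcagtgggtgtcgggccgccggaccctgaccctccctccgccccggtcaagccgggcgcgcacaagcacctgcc
Cenpe (chr3:135212433-135212592, plus strand): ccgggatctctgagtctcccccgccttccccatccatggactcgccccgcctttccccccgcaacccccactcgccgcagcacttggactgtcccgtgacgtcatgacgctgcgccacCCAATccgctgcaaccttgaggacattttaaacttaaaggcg
Aspm (chr1:139454643-139454802, plus strand): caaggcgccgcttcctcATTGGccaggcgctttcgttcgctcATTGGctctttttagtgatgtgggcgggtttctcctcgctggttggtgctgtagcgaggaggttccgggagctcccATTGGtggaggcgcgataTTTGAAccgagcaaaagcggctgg

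Clone A1 stood apart before any gene was considered. In the 17168 probe sets averaging at least 6, the correlation between clones of the induced-minus-uninduced difference was -0.64 for A1 and B3, -0.76 for A1 and C6, and 0.67 for B3 and C6. These are correlations across probe sets of arrays that were normalized together. The arrays could not be checked against the transgene, since the probe sets were not placed on the human sequence here. Whether the 2 arrays of A1 carry each other's label was therefore not settled, and every A1 value and every comparison with A1 is given by the labels as they stand. Array medians lay between 5.06 and 5.11, and any pair of arrays correlated at 0.991 to 0.996. Induced A1 correlated at 0.9940 and 0.9947 with uninduced B3 and C6, and at 0.9921 and 0.9910 with induced B3 and C6. For uninduced A1 the values were 0.9925 and 0.9935 with induced B3 and C6, and 0.9912 and 0.9928 with uninduced B3 and C6. The 2 arrays of A1 correlated at 0.9962 with each other. The ES cell markers fixed for this work (Pou5f1, Nanog, Sox2 and 5 others) all had means of at least 6, and their list mean was 12.17 to 12.34 in induced and 12.25 to 12.27 in uninduced arrays. Of 8 fibroblast markers, 2 reached a mean of 6 (Acta2 and Thy1), as did 0 of 4 primitive endoderm, 0 of 4 trophectoderm and 2 of 4 neural markers (Pax6 and Tubb3). The fibroblast list mean was 4.56 to 4.66 in induced and 4.58 to 4.63 in uninduced arrays. All results are given for the 6 arrays together, for A1 against B3 and C6, and for B3 and C6 without A1.

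With all 6 arrays in the fit, no member passed the test of induced against uninduced cells. The first comparison asks which members differ in RNA after 24 h without tetracycline, the condition meant to express GTF2I. The arrays do not measure TFII-I, the protein product of GTF2I. Each member is represented by its brightest probe set, that is, the one averaging highest over all arrays, and these means ran between 7.23 and 12.59 on the log2 scale, where a difference of 1 is a factor of 2. All 39 brightest probe sets had a mean of at least 6, as did 62 of the 91 member probe sets. In limma with 3 arrays per group, 0 of the 91 member probe sets passed an adjusted p of 0.05, against 0 of 45037 probe sets on the array (0%), and 0 of the 91 had an unadjusted p under 0.05, against 436 of all probe sets. With the clone as a block, 0 passed again, and 3 of the 91 had an unadjusted p under 0.05, against 847 of all probe sets. The methods' t-test called 0 probe sets after Benjamini-Hochberg adjustment, with 867 at an unadjusted p under 0.05. For the 39 brightest probe sets the median difference was -0.00, with 19 above and 20 below 0. The lowest was Plk1 at -0.19 (95% interval -0.55 to 0.17) and the highest Evi5 at 0.45 (95% interval -0.73 to 1.63). The median absolute difference was 0.05 for these genes and 0.07 over the brightest probe sets of all 18193 genes. The 95% intervals, which carry no adjustment for the number of probe sets, reached a median of 0.27 to either side. In a typical member an estimate had to exceed that to reach an unadjusted p of 0.05. The widest interval of a member reached 1.18 to either side. The adjusted test asked for much more, and the smallest adjusted p over all probe sets was 0.9999 (limma). Changes well above 0.27 could therefore also have been missed.

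Between clones, some members moved in opposite directions on induction. The second comparison was the induced-minus-uninduced difference of A1 minus the mean of those of B3 and C6, with the clone as a block, hereafter the A1 comparison. Like the list of members, it was chosen with earlier results of these data known. A negative value (lower in A1) means that the difference of A1 was the lower one. Over the array 1219 of 45037 probe sets passed (2.71%), 450 of them lower in A1 (0.999%) and 769 higher (1.71%). Among the member probe sets 7 of 91 passed, all of them lower in A1, and they belonged to Evi5, Akap9, Knl1, Cenpe and Aspm. Among the 39 brightest probe sets only that of Evi5 passed. In B3 and C6 alone, with the clone as a block, 981 probe sets passed (2.18%), 392 of them higher on induction (0.870%). There, 6 member probe sets were higher and 0 lower. Each of these fits leaves 1 residual degree of freedom per probe set, the spread between B3 and C6, and borrows from the spread over all probe sets. A1 is 1 clone with 1 array per state and adds no spread of its own, so these p-values do not cover the spread among clones of its kind. Without the block, 1 member probe set passed in the A1 comparison (Akap9, 1437082_at) and 0 in B3 and C6 alone, against 3 and 0 over the array.

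By sign, 18 of the 39 brightest probe sets (46.2%) were lower on induction in A1 and higher in both B3 and C6. The reverse held for 10 (25.6%). Over the 9561 genes whose brightest probe set averaged at least 6, these shares were 30.8% and 30.0%. Of the 39, 2 were lower in all 3 clones (Dsn1 and Tpx2, 5.13%, against 5.89%). In 9 either B3 or C6 stood alone (23.1%, against 27.9%). Over the 62 member probe sets averaging at least 6, the first pattern held for 25 (40.3%), against 30.2% of all such probe sets. The reverse held for 18 (29.0%), against 30.0% of all. The same sign in all 3 clones was found for 4, against 11.9% of all. Across the 39 genes the correlation of these differences was -0.92 for A1 and B3, -0.92 for A1 and C6, and 0.90 for B3 and C6. Without Evi5 these values were -0.73, -0.81 and 0.76. The genes shared the same 6 arrays, so these correlations are a description only.

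**Figure D2:**
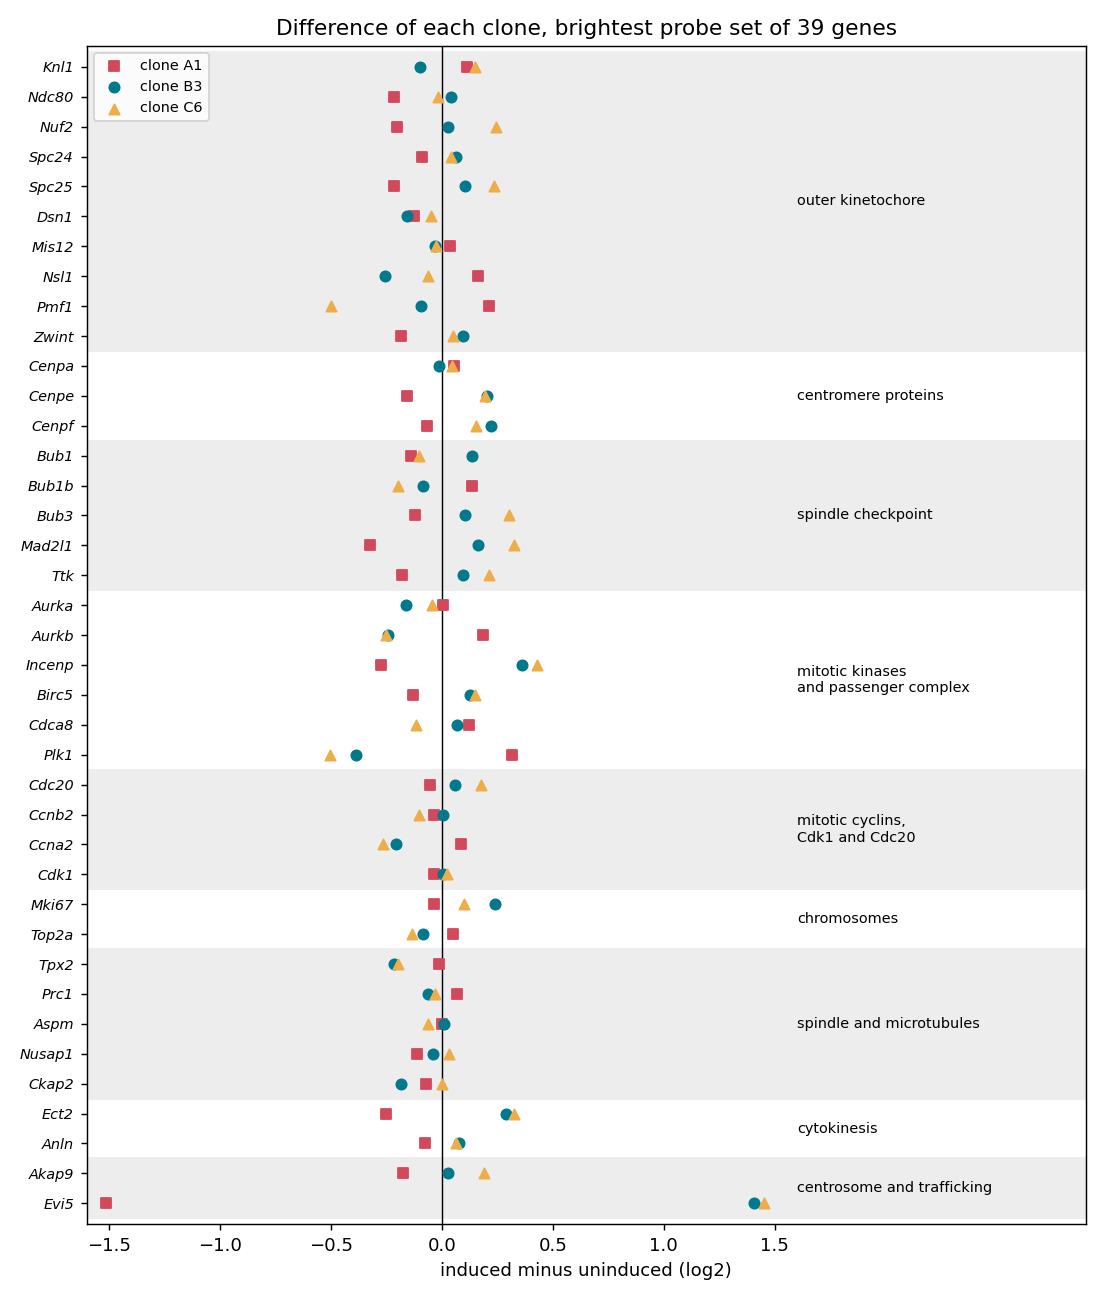
Induced-minus-uninduced difference (log2) of each clone for the brightest probe set of 39 genes, ordered by role, with 1 point per clone. Evi5 lay at -1.51 in A1 and at 1.41 and 1.45 in B3 and C6, while every other point lay between -0.50 and 0.43.

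Evi5 showed the largest shift among the brightest probe sets. Its product is a TBC-domain protein of the centrosome and midbody that acts on Rab11 and stabilises the anaphase-promoting complex inhibitor Emi1. Probe set 1417513_at read 7.97, 9.61 and 9.43 in the induced arrays of A1, B3 and C6, against 9.48, 8.20 and 7.98 in the uninduced arrays. Uninduced A1 lay with induced B3 and C6, and induced A1 with uninduced B3 and C6, so that the groups overlapped. The A1 difference minus that of B3 and C6 was -2.94 ± 0.18 (SE, limma, adjusted p = 0.000378), which was number 9 from the lowest of 45037. In B3 and C6 alone the difference was 1.43 ± 0.11 (SE, limma, adjusted p = 0.00121). The second probe set of the gene, 1417512_at, moved far less, with 8.73, 8.88 and 8.82 in the induced arrays and 8.87, 8.70 and 8.55 in the uninduced arrays of A1, B3 and C6. Its A1 comparison gave -0.37 (95% interval -0.79 to 0.04, limma, adjusted p = 0.351).

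Akap9 encodes a scaffold of the centrosome and Golgi that anchors protein kinase A and microtubule nucleation factors. Its brightest probe set, 1435769_at, gave 7.42, 7.13 and 7.76 in the induced arrays of A1, B3 and C6, against 7.60, 7.10 and 7.57 in the uninduced arrays, and did not pass, at -0.28 (95% interval -0.71 to 0.14, limma, adjusted p = 0.509). Probe set 1437082_at of the same gene read 3.98, 5.64 and 5.68 in the induced arrays, against 5.68, 3.80 and 3.96 in the uninduced arrays. The A1 pair and the B3 and C6 pairs changed places almost completely. For 1437082_at the A1 comparison gave -3.48 ± 0.19 (SE, limma, adjusted p = 0.000272), number 2 from the lowest of 45037, and B3 and C6 alone gave 1.77 ± 0.11 (SE, limma, adjusted p = 0.000556). Another probe set, 1455151_at, ran the same way, with 3.63, 3.97 and 3.99 in the induced arrays, against 4.42, 3.38 and 3.55 in the uninduced arrays. That probe set gave -1.32 ± 0.19 (SE, limma, adjusted p = 0.0115) in the A1 comparison and 0.52 ± 0.11 (SE, limma, adjusted p = 0.0469) in B3 and C6. The other 3 probe sets of Akap9 did not pass.

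Cenpe encodes CENP-E, the kinesin that carries chromosomes towards the spindle equator. Its brightest probe set, 1435005_at, read 8.75, 8.95 and 9.35 in the induced arrays of A1, B3 and C6, against 8.90, 8.75 and 9.16 in the uninduced arrays, a comparison of -0.36 (95% interval -0.77 to 0.06, limma, adjusted p = 0.373). The spread between clones was larger than any difference within a clone. Probe set 1439040_at of Cenpe read 3.47, 5.14 and 5.04 in the induced arrays, against 4.64, 3.42 and 3.23 in the uninduced arrays. Its A1 comparison was -2.94 ± 0.18 (SE, limma, adjusted p = 0.000378), number 10 from the lowest of 45037, and its difference in B3 and C6 was 1.76 ± 0.11 (SE, limma, adjusted p = 0.000556). Cenpf is a large outer kinetochore protein, and its brightest probe set read 9.36, 9.38 and 9.88 in the induced arrays, against 9.43, 9.16 and 9.73 in the uninduced arrays, at -0.26 (95% interval -0.67 to 0.16, limma, adjusted p = 0.552). As for Cenpe, C6 had the highest value in both states. The third centromere member, Cenpa, is the histone H3 variant that marks centromeres, and its brightest probe set differed by 0.06, -0.01 and 0.04.

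Knl1 is the outer kinetochore protein on which Bub1 and Bub3 dock. The brightest of its probe sets, 1430193_at, read 7.76, 7.67 and 8.01 in the induced arrays of A1, B3 and C6, against 7.65, 7.76 and 7.86 in the uninduced arrays. Its A1 comparison was 0.08 (95% interval -0.36 to 0.53, limma, adjusted p = 0.889), on the other side of 0 from the second probe set of the gene. That probe set, 1438833_at, read 3.24, 5.50 and 5.20 in the induced arrays, against 4.78, 3.35 and 3.65 in the uninduced arrays. The comparison gave -3.38 ± 0.25 (SE, limma, adjusted p = 0.000793), number 4 from the lowest of 45037, and B3 and C6 alone gave 1.85 ± 0.15 (SE, limma, adjusted p = 0.00144). Aspm, a protein of the spindle poles known for its part in microcephaly, showed a similar split between its probe sets. Its brightest probe set, 1422814_at, read 9.28, 9.54 and 9.47 in the induced arrays, against 9.28, 9.53 and 9.53 in the uninduced arrays, and compared at 0.03 (95% interval -0.39 to 0.44, limma, adjusted p = 0.965). Probe set 1458560_at read 5.25, 6.28 and 5.95 in the induced arrays, against 5.91, 5.56 and 5.31 in the uninduced arrays. The A1 comparison of 1458560_at was -1.34 ± 0.18 (SE, limma, adjusted p = 0.0103), and B3 and C6 alone gave 0.68 ± 0.11 (SE, limma, adjusted p = 0.0186). For 1441520_at of Aspm the arrays read 4.84, 5.38 and 5.25 when induced and 5.51, 5.03 and 4.73 when uninduced, with -1.10 ± 0.19 (SE, limma, adjusted p = 0.0216) in the A1 comparison and 0.43 ± 0.11 (SE, limma, adjusted p = 0.0836) in B3 and C6 alone.

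**Figure D3:**
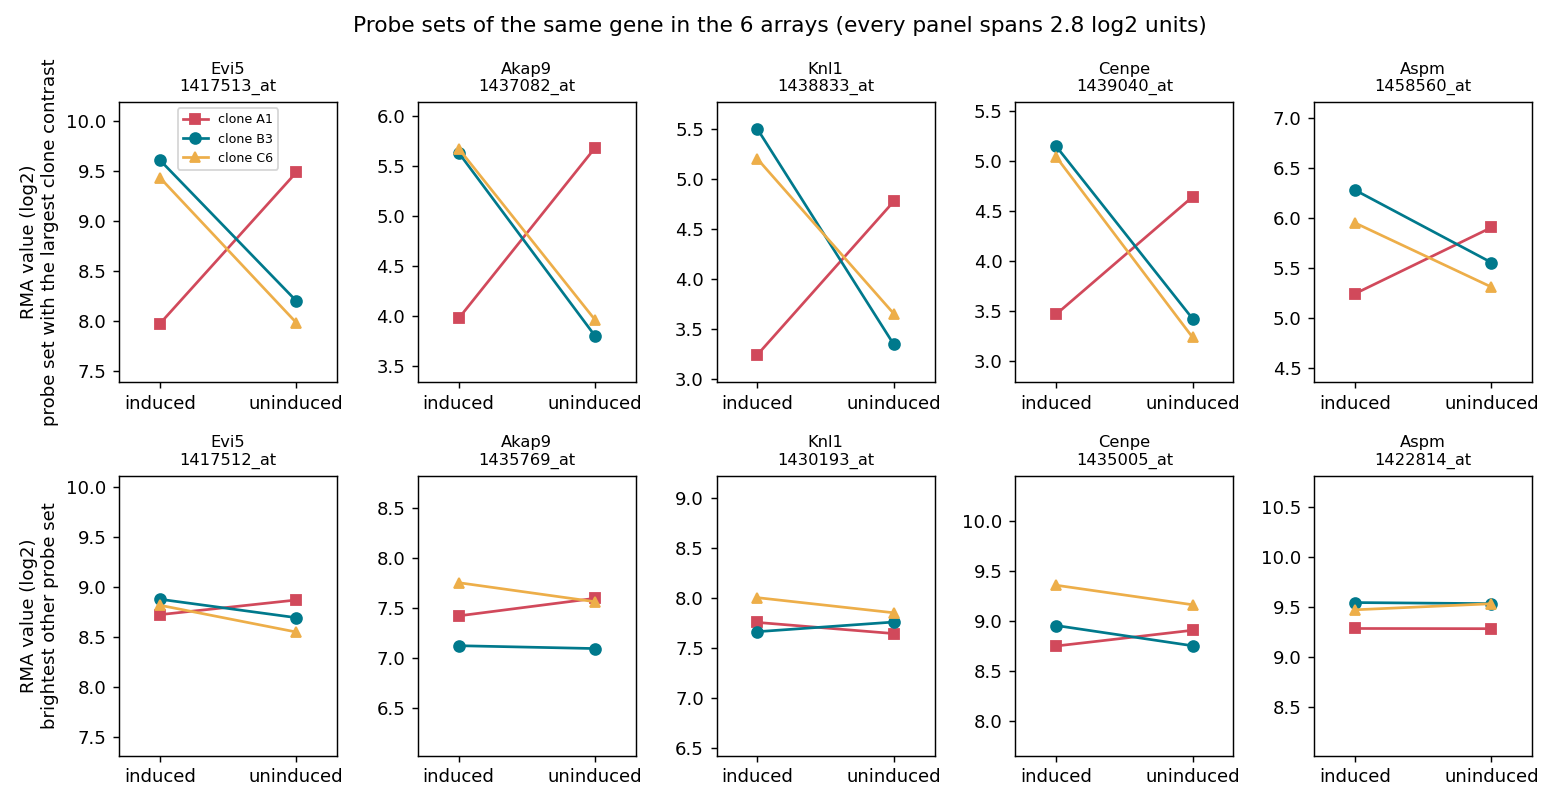
RMA values (log2) of A1, B3 and C6 in induced (left) and uninduced (right) arrays, for the probe set with the largest A1 comparison of 5 genes (top) and the brightest other probe set of the same gene (bottom), with 1 line per clone and a span of 2.8 in every panel. The lines of A1 cross those of B3 and C6 in every upper panel, and in the lower panels no clone differed by more than 0.27.

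Of the 7 probe sets that passed, 6 had a mean under 6. Over the array the share called lower in A1 was 0.599% of the 27869 probe sets with a mean under 6 and 1.65% of the 17168 others, so that calls of this kind were less common among dim probe sets as a whole. All 7 were of the kind without an _x, _s or _a suffix, letters that mark probe sets shared by several transcripts. The same held for 64 of the 91 member probe sets, and no difference from that share was tested. Among the 26 members with several probe sets, 5 had at least 1 that passed (19.23%), against 767 of 9010 genes of that kind (8.51%). In 4 of those 5 members the brightest probe set did not pass, against 481 of 767 genes (62.71%). Since the members and the comparison were chosen with earlier results of these data known, these shares are a description only. Probe sequences were not used here, so the part of each transcript that a probe set reads is not given.

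**Figure D4:**
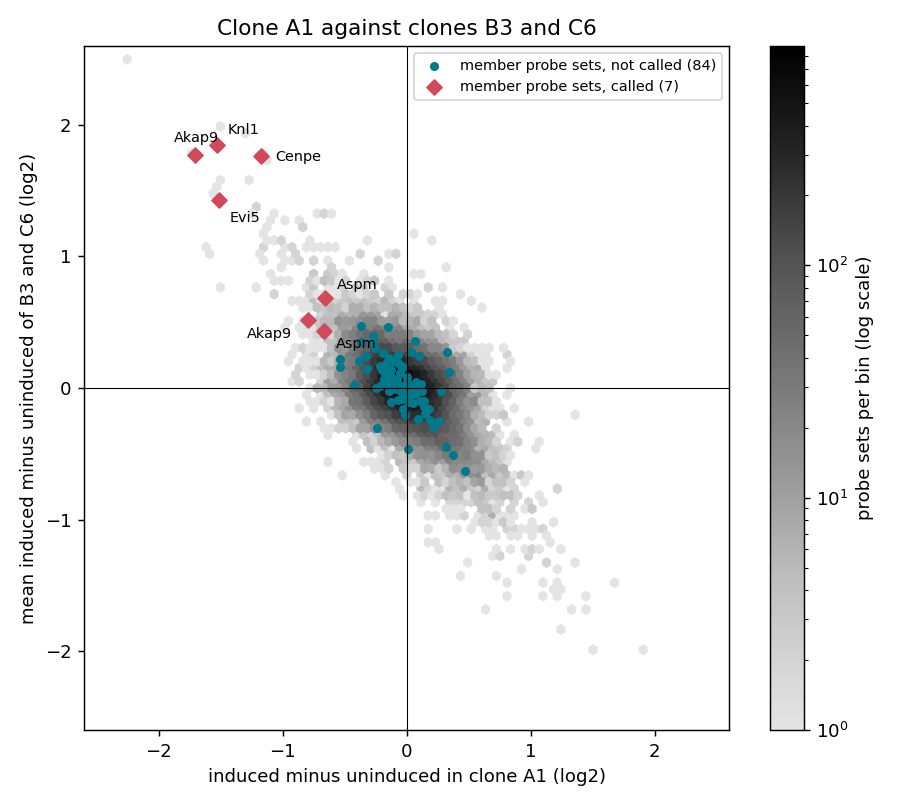
Induced-minus-uninduced difference (log2) in clone A1 (x axis) against the mean difference of B3 and C6 (y axis) for 45037 probe sets (grey bins, log colour scale) and the 91 member probe sets (84 not called in blue, 7 called as red diamonds). The called members lie in the upper left, where A1 was lower and B3 and C6 were higher.

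In the rest of the KMN network no brightest probe set passed, and the A1 comparisons of the 10 genes had a median of -0.08. Pmf1, a subunit of the Mis12 complex, had the highest: 1438173_x_at read 8.87, 8.78 and 8.21 in the induced arrays of A1, B3 and C6, against 8.66, 8.87 and 8.71 in the uninduced arrays, and compared at 0.51 (95% interval 0.02 to 1.00, limma, adjusted p = 0.273). Its other probe set, 1416707_a_at, ran the same way with 8.80, 8.51 and 7.83 induced and 8.32, 8.80 and 8.79 uninduced, and 1.10 (95% interval 0.51 to 1.70, limma, adjusted p = 0.0651). Only induced C6 lay well below the other arrays of this gene in both probe sets. Spc25, of the Ndc80 complex, had the lowest: 10.22, 10.25 and 10.38 in the induced arrays, against 10.44, 10.15 and 10.15 in the uninduced arrays, and -0.39 (95% interval -0.81 to 0.03, limma, adjusted p = 0.338). Its second probe set, 1453815_at, compared at -0.72 (95% interval -1.20 to -0.24, limma, adjusted p = 0.119). Spc25 was highest in uninduced A1 and induced C6. The brightest probe sets of Nuf2 and Ndc80, its partners in the same complex, compared at -0.34 and -0.23, and that of Spc24 at -0.14. Those of Nsl1, Mis12 and Dsn1, of the Mis12 complex, compared at 0.32, 0.07 and -0.02. Zwint, which binds Knl1 and recruits the checkpoint complex RZZ, had 7 probe sets, and all 7 comparisons were below 0, between -0.76 and -0.12, with none past the threshold.

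Of the spindle checkpoint genes, which delay anaphase while a kinetochore is unattached, 3 of 5 were lower in A1 and higher in B3 and C6, and none passed. Mad2l1 encodes Mad2, the inhibitor of Cdc20, and read 11.23, 11.30 and 11.46 in the induced arrays of A1, B3 and C6, against 11.56, 11.14 and 11.13 in the uninduced arrays. The highest value was that of uninduced A1 and the lowest those of uninduced B3 and C6. Its comparison was -0.57 (95% interval -0.99 to -0.15, limma, adjusted p = 0.157). Ttk, the kinase Mps1 that starts checkpoint signalling, gave 9.98, 9.94 and 10.28 in the induced arrays, against 10.16, 9.84 and 10.07 in the uninduced arrays, with -0.33 (95% interval -0.75 to 0.09, limma, adjusted p = 0.422). The brightest probe set of Bub3 compared at -0.32, that of Bub1 at -0.16 and that of Bub1b at 0.28, the last in the other direction.

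Among the brightest probe sets, the smallest adjusted p after that of Evi5 belonged to the mitotic kinases and the chromosomal passenger complex, Plk1 first and Incenp next, and neither passed. Plk1, the kinase of centrosome maturation and mitotic exit, read 11.04, 10.74 and 10.70 in the induced arrays of A1, B3 and C6, against 10.72, 11.13 and 11.20 in the uninduced arrays. It ran opposite to Evi5, being high in induced A1 and in uninduced B3 and C6, at 0.76 (95% interval 0.34 to 1.18, limma, adjusted p = 0.0688). In B3 and C6 alone it gave -0.45 ± 0.11 (SE, limma, adjusted p = 0.0713). The probe sets of Incenp, the scaffold of the passenger complex, ran against each other. Its brightest probe set, 1439436_x_at, read 11.47, 11.78 and 11.91 in the induced arrays, against 11.74, 11.42 and 11.48 in the uninduced arrays, a comparison of -0.67 (95% interval -1.08 to -0.25, limma, adjusted p = 0.0951). The next, 1423092_at, read 10.25, 9.86 and 9.72 in the induced arrays, against 9.88, 10.23 and 10.35 in the uninduced arrays, and compared at 0.88 (95% interval 0.43 to 1.32, limma, adjusted p = 0.0536). These 2 probe sets of 1 gene had opposite signs in every clone, so no direction is given for Incenp. Cdca8, which encodes borealin, had A1 comparisons of opposite sign in its brightest probe set, at 0.15, and 1436847_s_at, at -0.84 (95% interval -1.26 to -0.42, limma, adjusted p = 0.0525). Aurkb, the kinase of the complex, compared at 0.43 in its brightest probe set, Birc5 (survivin) at -0.27, and the spindle pole kinase Aurka at 0.11. Just inside and just outside the threshold lay Aspm 1441520_at, with an adjusted p of 0.0216, and Cdca8 1436847_s_at, with 0.0525.

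None of the cyclins, Cdk1 and Cdc20, which drive entry into and exit from mitosis, passed. Cdk1 gave differences of -0.04, 0.01 and 0.02 in A1, B3 and C6, and Ccnb2 gave -0.03, 0.01 and -0.10. Ccna2, which encodes cyclin A2, read 11.22, 11.05 and 11.12 in the induced arrays of A1, B3 and C6, against 11.13, 11.25 and 11.39 in the uninduced arrays, at 0.32 (95% interval -0.09 to 0.74, limma, adjusted p = 0.428). Its other probe set, 1417910_at, had the opposite sign at -0.21. For Cdc20, probe set 1439377_x_at read 12.50, 12.61 and 12.75 in the induced arrays, against 12.55, 12.55 and 12.58 in the uninduced arrays, at -0.17 (95% interval -0.59 to 0.25, limma, adjusted p = 0.719). The proliferation marker Mki67, which coats mitotic chromosomes, read 9.89, 10.17 and 10.17 in the induced arrays, against 9.92, 9.93 and 10.07 in the uninduced arrays, at -0.20 (95% interval -0.63 to 0.22, limma, adjusted p = 0.655). Top2a, the topoisomerase that untangles sister chromatids, read 11.83, 11.96 and 11.90 when induced and 11.78, 12.05 and 12.03 when uninduced, at 0.16 (95% interval -0.25 to 0.58, limma, adjusted p = 0.731). In these genes every difference within a clone was at most 0.27 in size in the brightest probe set.

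Spindle and microtubule genes had A1 comparisons between -0.11 and 0.19 in their brightest probe sets. Tpx2, the activator of Aurora A on spindle microtubules, read 10.64, 10.58 and 10.54 in the induced arrays of A1, B3 and C6, against 10.65, 10.80 and 10.73 in the uninduced arrays, with 0.19 (95% interval -0.22 to 0.60, limma, adjusted p = 0.672). Prc1 bundles the microtubules of the central spindle, and its brightest probe set read 10.13, 9.97 and 10.08 when induced and 10.06, 10.04 and 10.11 when uninduced, with 0.12 (95% interval -0.30 to 0.53, limma, adjusted p = 0.823). The spindle proteins Nusap1 and Ckap2 compared at -0.11 and 0.02. Among cytokinesis genes, Ect2, the exchange factor that switches on RhoA at the cell equator, read 10.07, 10.44 and 10.42 in the induced arrays, against 10.32, 10.15 and 10.09 in the uninduced arrays. It shared the pattern of low induced A1 and high induced B3 and C6, at -0.56 (95% interval -0.97 to -0.15, limma, adjusted p = 0.154). Anln, the scaffold of the contractile ring, read 10.65, 10.80 and 11.03 when induced and 10.73, 10.73 and 10.97 when uninduced, at -0.15 (95% interval -0.56 to 0.26, limma, adjusted p = 0.76).

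A wider list of 95 mitosis genes outside the members, in 8 groups, was read in the same way, and 92 were found. By brightest probe set, 0 of 92 passed across all 6 arrays. In the A1 comparison 5 of the 92 were higher and 1 lower in A1, where 2.03% and 0.654% of the brightest probe sets of all 18193 genes were called. In B3 and C6 alone 1 was higher and 4 were lower on induction, where 0.445% and 1.36% of all genes were called. For 44 of the 92 (47.8%), A1 was lower and B3 and C6 higher, and for 25 (27.2%) the reverse. These patterns held for 22.6% and 22.9% of all genes, which include many dim ones. Over the 9561 genes whose brightest probe set averaged at least 6, the shares were 30.8% and 30.0%. Of those 9561, 338 were called higher and 96 lower in A1. In B3 and C6 alone, 70 of the 9561 were called higher and 225 lower. The A1 comparisons had a median of -0.16 over these 92 genes, -0.11 over the 39 members and 0.00 over the 18193 genes. That order depended on the choice of probe set, since over all probe sets the medians were -0.07 for the 202 of the wider list, -0.15 for the 91 of the members and -0.01 for all 45037. Over the 202 probe sets the first pattern held for 68 (33.7%) and its reverse for 52 (25.7%). Those higher in A1 included Foxm1 and Mybl2, the transcription factors of late cell cycle genes. Foxm1 differed by 0.55, -0.51 and -0.56 in A1, B3 and C6 (comparison 1.08, limma, adjusted p = 0.0206), and Mybl2 by 0.48, -0.33 and -0.62 (0.95, adjusted p = 0.0438). Mad1l1, the checkpoint partner of Mad2, differed by 0.68, -0.48 and -1.06 (1.45, adjusted p = 0.0208). Fzr1, the activator of the anaphase-promoting complex in G1, compared at 0.99 (adjusted p = 0.0307), and Kansl1, a chromatin and spindle protein, at 1.31 (adjusted p = 0.0199). The centrosome gene Ninl was the one lower in A1, at -0.94 (adjusted p = 0.0348), with differences of -0.27, 0.62 and 0.74. In the remaining 3 groups the smallest p belonged to the centromere protein Cenpb (0.73, adjusted p = 0.0748), the histone H3 kinase Haspin (-0.61, adjusted p = 0.159) and the RhoA exchange factor Arhgef2 (0.64, adjusted p = 0.108), none of which passed. The named genes do not stand for their groups. Comparisons were below 0 for 9 of 10 genes in the group of Mad1l1 and 13 of 16 in that of Cenpb. The same held for 11 of 16 with Fzr1, 8 of 15 with Kansl1, 7 of 12 with Ninl and 5 of 6 with Haspin. It held for 3 of 10 with Foxm1 and Mybl2, and 3 of 7 with Arhgef2. Mad1l1, Cenpb, Fzr1 and Kansl1 thus ran against most of their groups.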

How the data were processed

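Total RNA of 6 cultures was hybridized to Affymetrix mouse expression arrays. The deposited log2 values had been made by the authors with robust multiarray averaging (RMA) in the affy package, per the labels and the methods, with versions not given in the sources used here. They were used unchanged. RMA normalizes all arrays to a common distribution, which would remove a shift shared by most genes, and the number of arrays limits precision. Of 45101 probe sets, 64 controls were left out. By the platform annotation, 34945 of the tested probe sets had 1 gene symbol, 932 several and 9160 none, and 34741 of those with 1 symbol were found in RefSeq GRCm38.p6. 0 sample columns were left out.

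3 fits were made with limma 3.58.1 in R 4.3.3, 2-sided, with Benjamini-Hochberg adjustment over 45037 probe sets: induced minus uninduced on 6 arrays without a block, the A1 difference minus the mean of the B3 and C6 differences with the clone as a block, and induced minus uninduced in B3 and C6 with that block. The threshold was an adjusted p of 0.05. The methods name a t-test, which was run as an alternative. Replicate numbers pair arrays because a number is 1 clone. Deviations from the group means correlated within A1, B3 and C6 at 0.19, 0.53 and 0.31. Beyond the clone, nothing says that cultures were independent, so p-values measure the spread between these arrays.

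Named members were those past the threshold in any fit and the 2 per role with the largest A1 comparison in the brightest probe set. From the wider list, the gene with the smallest p per group was named, and Mybl2 was added after its value was seen because it passed. The members, lists, comparisons and rules were chosen with earlier results of these data known. Alternatives covered the block, the test, the variance model, array medians, the filter at 6, probe sets per gene, the threshold, and leaving out arrays or clones. A gene was counted as reversed where its sign changed while either value passed or had an unadjusted p under 0.05. Figures were drawn with matplotlib 3.10.9.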

Additional observations from a re-analysis of the deposited data

Results flagged for a closer look

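7 member probe sets were singled out because limma's test of the difference between clones passed, with A1 moving down and B3 and C6 moving up on induction. The A1 difference minus the mean of the B3 and C6 differences was -3.48 for Akap9 1437082_at, -3.38 for Knl1 1438833_at, -2.94 for Evi5 1417513_at and -2.94 for Cenpe 1439040_at. It was -1.34 for Aspm 1458560_at, -1.32 for Akap9 1455151_at and -1.10 for Aspm 1441520_at. Of these genes only Evi5 carried the difference in its brightest probe set. Without the clone block only Akap9 1437082_at passed. No cause of the difference between clones was tested.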

How the results depend on the processing

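Across all 6 arrays, 0 probe sets and 0 members passed under every alternative but 1: with clone A1 left out and the replicate block, 981 probe sets and 6 members passed. Leaving out single arrays, or A1 without the block, gave 0. In the A1 comparison, 1219 probe sets and 7 members became 2985 and 16 (3 higher in A1) with a mean-variance trend, 2642 and 14 (3 higher in A1) at an adjusted p of 0.10, 458 and 1 with 1 probe set per gene, and 3 and 1 with no replicate block. With the filter at a mean of 6, 2355 probe sets passed and 8 members, 3 of them higher in A1. In B3 and C6 alone, 981 probe sets and 6 members became 2745 and 15 (11 higher, 4 lower) with the trend, 2107 and 13 (10 higher, 3 lower) at 0.10, 207 and 1 with 1 probe set per gene, 0 and 0 with no replicate block, and 1861 and 6 (3 higher, 3 lower) with the filter. Shifting arrays to a common median changed no count by over 1.5 times. Causes were not tested. Among values called or at an unadjusted p under 0.05, genes in the A1 comparison reversed only when other probe sets were read: Knl1 to -1.65 in the mean over its probe sets and -3.38 in the second, Incenp to 0.026 and 0.88, Cdca8 to -0.84 in the second and Aspm to -0.66 in the mean. Without the block, 6 of the 7 called probe sets lost the call at unchanged values, such as Evi5 1417513_at (adjusted p = 0.0887). Of the other gene values, 230 in the A1 comparison and 689 across all 6 arrays were not counted as changed. Of the 230, 45 came from leaving out B3 and 45 from leaving out C6. Those are effect sizes without a test, so they cannot show that a call was kept. The rest of the 230 and the 689 stayed on their side of the threshold. The sign changed in 16 of the 230 and 131 of the 689, none of them called. Depth in the sense of signal is a limit for the 29 member probe sets with a mean under 6.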

Other observations

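Of the 91 member probe sets, 6 were higher in all 3 clones (6.59%) and 4 lower (4.40%). Over all 45037 probe sets the shares were 9.69% and 9.16%, but a larger part of the array is dim. With a mean under 6 the shares were 13.8% and 6.90% of 29 member probe sets, against 12.2% and 10.9% of all. With a mean of at least 6 they were 3.23% and 3.23% of 62, against 5.63% and 6.27% of all. The counts are small, and no difference from the array was tested. Some member probe sets with the same sign in all 3 clones, none of them the brightest of its gene, are given here. For Ttk, 1442594_at read 4.82, 4.76 and 4.98 in the induced arrays of A1, B3 and C6, against 4.75, 4.40 and 4.63 in the uninduced arrays, a difference of 0.26 (95% interval -0.02 to 0.54). For Top2a, 1427724_at read 3.57, 3.85 and 3.73 when induced and 3.25, 3.68 and 3.35 when uninduced, a difference of 0.29 (95% interval -0.04 to 0.62), and 1442454_at of the same gene differed by 0.10, 0.16 and 0.32 in the 3 clones. For Tpx2, 1447519_x_at read 5.43, 5.74 and 5.69 when induced and 5.67, 6.11 and 5.94 when uninduced, a difference of -0.28 (95% interval -0.61 to 0.05). These intervals come from the fit without the clone block. With the block, the unadjusted p was 0.0433 for Ttk 1442594_at, 0.0204 for Top2a 1427724_at and 0.0194 for Tpx2 1447519_x_at (limma, adjusted p = 1.00 for each). These probe sets were chosen after their values were seen.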
